A study of Mus musculus with 9 samples.

Results

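The genes described are 9 genes of the goblet cell and of intestinal mucus: the secreted gel mucin Muc2, the transmembrane mucins Muc3 and Muc13, the trefoil peptide Tff3, the disulfide isomerase Agr2, the mucus protein Fcgbp, the secreted protease Clca3, the transcription factor Spdef and the resistin-like peptide Retnlb. They were chosen by name and function. By gene symbol, 5 of the 9 genes had a probe on the array, and 2 more (Muc2 and Muc13) were reached only through the RefSeq accession of their probe. No probe was matched to Muc3 or Fcgbp, so 7 of the 15885 genes named on the array are described, with 1 probe each. Of these, 6 were among the 9789 genes tested (detected on at least 3 arrays), and 5 were detected on all 9 arrays.

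The RNA came from the jejunum of 9 male mice of the outbred stock OF1, 7 weeks old, with 1 mouse per single-colour array. Their line had been kept on feed B, feed K or feed G, and all were animals of generation 3, with 3 mice per feed: mice 7, 8 and 10 on feed B, mice 1, 3 and 4 on feed K, and mice 4, 8 and 11 on feed G. The methods describe a custom maize diet, but which letter stands for it and what the other feeds contained is not given in the sources used here. No feed is named as a control, and the hour of sampling was not randomized. Each sample was a short piece of whole gut wall cut around the midpoint of the small intestine, so each value covers epithelium, muscle and immune cells together.

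Goblet cells are the secretory cells of the gut epithelium that release mucus. Muc2 forms the net of the mucus gel, is folded with the help of Agr2 in the endoplasmic reticulum and is secreted together with Tff3, Fcgbp and Clca3. Spdef drives the maturation of goblet cells downstream of Atoh1, and Retnlb is a goblet cell product best known from the large intestine and from the response to worms, where the type 2 cytokine interleukin 13 induces it. Muc3 and Muc13 differ from Muc2 in that they stay in the cell membrane and are also made by enterocytes. In samples of whole tissue, fewer goblet cells and less RNA per goblet cell cannot be told apart.

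Of the 9 genes, 6 have an entry in the RefSeq promoter table (mouse assembly GRCm38.p6). Muc2 and Agr2 are shown, the gel former and the isomerase that folds it. They were picked since, as normalized here, Muc2 had nearly equal means by feed while the spread of Agr2 between mice was among the wider. Each line gives the 250 bases before the start site, 5′ to 3′ on the + strand, at chr7:141690090-141690339 for Muc2 and chr12:35992675-35992924 for Agr2. Capitals mark matches to short words, each searched on both strands. One was TATAAA, written here as the TATA box. The E box, which basic helix-loop-helix factors such as Atoh1 recognise in related forms, was searched as CAGCTG. For the GC box of Sp factors the letters were GGGCGG. The forkhead box, bound by Foxa factors, was searched with the letters TGTTTAC.
Muc2: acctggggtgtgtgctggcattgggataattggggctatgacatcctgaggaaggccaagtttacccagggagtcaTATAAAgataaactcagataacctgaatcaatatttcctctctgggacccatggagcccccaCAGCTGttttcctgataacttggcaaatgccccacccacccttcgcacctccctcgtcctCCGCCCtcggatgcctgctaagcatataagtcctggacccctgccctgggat
Agr2: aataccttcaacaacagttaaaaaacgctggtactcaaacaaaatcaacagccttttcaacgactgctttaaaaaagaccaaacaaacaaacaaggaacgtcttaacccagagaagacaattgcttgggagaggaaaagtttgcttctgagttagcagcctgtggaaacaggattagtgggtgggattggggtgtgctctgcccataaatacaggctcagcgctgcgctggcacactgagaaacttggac
The Muc2 window held the TATA box with its first base at -174, the E box at -112 and the GC box on the other strand at -52, counted from the start site. The Agr2 window held none of these words. Among all 32851 promoter windows of this length, 12.4% held the TATA box, 13.0% the E box, 32.7% the GC box and 3.17% the forkhead box. No start site was measured here, and a match describes letters of the reference sequence only.

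Expression was read as the log2 of the quantile-normalized signal. Since a probe's brightness also depends on its sequence, levels are compared between mice for the same gene and never between genes. Detection on an array required a signal-to-noise ratio (spot signal over its noise) of at least 3. The share of probes detected ran from 33.7% to 43.6% on the arrays of feed B, from 41.2% to 47.6% on those of feed K and from 46.4% to 48.1% on those of feed G, so the arrays of feed B were on the whole less sensitive. Its part in the differences below was not tested. All 6 enterocyte markers with a probe were detected on all 9 arrays.

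Muc2 had mean signals within 0.02 of each other, on the log2 scale, under the 3 feeds. On feed B its log2 signal was 15.45, 15.47 and 15.85 in mice 7, 8 and 10. On feed K it was 15.59, 15.88 and 15.34 in mice 1, 3 and 4, and on feed G 15.36, 15.59 and 15.89 in mice 4, 8 and 11. Each feed thus held a low and a high mouse, and the ranges of the feeds overlapped. Feed B averaged 15.59 ± 0.22, feed K 15.60 ± 0.27 and feed G 15.61 ± 0.27 (SD, n = 3 each). Feed G exceeded feed B by 0.02 (SE 0.23) on the log2 scale, with a 95% interval of -0.50 to 0.55, which is 0.705-fold to 1.46-fold in signal. Changes of Muc2 inside that interval were not detectable with 3 mice per feed. Scaled to the median of each array, feed G was 0.59 above feed B for Muc2, which was 0.06 above the shift of the median gene under that scaling.

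Muc13, a mucin of the apical membrane, had its lowest values on feed G. Its log2 signal was 15.95, 15.83 and 15.95 on feed B and 16.10, 15.73 and 15.81 on feed K. On feed G it was 15.67, 15.71 and 15.26, and all 3 of these mice lay below all 6 mice of the other feeds. Feed G was below feed B by a log2 difference of -0.36 (SE 0.20, 95% interval -0.81 to 0.09, 0.777-fold), which had an unadjusted p of 0.0993 and an adjusted p of 0.875 with limma. The difference between feeds G and K was -0.33 (SE 0.20), with an adjusted p of 0.959 with limma. Without mouse 11 of feed G these differences were -0.23 and -0.19. With the authors' series table they were -0.013 and -0.040, at median differences over all genes of 0.30 and 0.07. Under scaling of each array to its median signal, the Muc13 difference between feeds G and B turned to 0.20, at a median difference over all genes of 0.53 under that scaling, so that Muc13 remained 0.33 below the median gene (-0.33). Among the 3 feeds Muc13 had the smallest p of the genes described, 0.180 with limma's F test and 0.0714 in an exact permutation test of F over 280 splits of the mice.

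Tff3, the trefoil peptide secreted with Muc2, varied least. Its log2 signal was 16.87, 17.20 and 17.02 on feed B, 17.08, 17.26 and 17.07 on feed K, and 17.11, 16.94 and 17.22 on feed G. The 9 mice lay within 1.31-fold of each other, and the ranges of the feeds overlapped. The widest difference in means was 0.11 (SE 0.18), feed K over feed B, with a 95% interval of -0.30 to 0.51 and an adjusted p of 0.958 with limma.

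Agr2, the isomerase needed for folding of Muc2, varied mainly among the mice of feed B. Its log2 signal was 15.20, 14.47 and 15.96 in mice 7, 8 and 10 of feed B, so that the lowest and the highest of all 9 mice were both on this feed, 2.80-fold apart. On feed K it was 14.96, 14.95 and 15.11, and on feed G 14.69, 15.09 and 15.45. The SD was 0.74 on feed B, 0.09 on feed K and 0.38 on feed G (n = 3 each). The differences in means were -0.21 for feed K over feed B, -0.13 for feed G over feed B and 0.07 for feed G over feed K (SE 0.37 each), and their adjusted p was at least 0.963 with limma. The difference between feeds G and B was 0.24 without mouse 10 of feed B, -0.50 without mouse 8 of that feed and 0.06 without mouse 4 of feed G.

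Clca3 (also called gob-5, now listed as Clca1) is a metalloprotease that goblet cells secrete and that cuts Muc2. Its log2 signal was 14.70, 13.96 and 14.80 on feed B and 14.83, 14.98 and 13.89 on feed K. It was 14.81, 15.07 and 15.05 on feed G. Mouse 8 of feed B and mouse 4 of feed K were far below the other 7 mice, which lay between 14.70 and 15.07. The mean of feed G, 14.98 ± 0.14 (SD, n = 3), exceeded that of feed B, 14.48 ± 0.46 (SD, n = 3), by 0.49 (SE 0.34, 95% interval -0.29 to 1.28), with an adjusted p of 0.887 with limma. The ranges of feeds G and B did not overlap, but their nearest mice, at 14.81 and 14.80, were almost level. The difference was 0.23 without mouse 8 of feed B and at most 0.65 with another mouse left out. Under scaling to the median the difference for Clca3 was 1.05, or 0.53 above the median gene, and it did not pass the adjusted p of 0.05 there either.

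Spdef was much nearer to the detection limit, with signal-to-noise ratios between 2.66 and 18.8, and was detected on 8 of 9 arrays. Its log2 signal was 9.73, 8.76 and 8.84 on feed B, where mouse 8 was not detected, 8.70, 9.07 and 8.75 on feed K, and 9.54, 9.24 and 9.12 on feed G. Mouse 7 of feed B was highest and mouse 1 of feed K lowest. The 3 mice of feed G lay above the 3 of feed K by 0.46 (SE 0.29, 95% interval -0.20 to 1.12) in the mean, with an adjusted p of 0.959 with limma, while the range of feed B overlapped both.

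Retnlb was detected in 2 of 9 mice, mouse 7 of feed B with a log2 signal of 9.01 and a signal-to-noise ratio of 3.41, and mouse 3 of feed K with a log2 signal of 7.43 and a signal-to-noise ratio of 5.04. Its spots failed the quality flag in mouse 4 of feed K and mouse 8 of feed G, and it was below the detection limit in the other 5. On the arrays, every spot with a signal-to-noise ratio below 1 carries its own standard deviation as its signal (119010 of 119010 spots), so signals of undetected Retnlb spots are not levels. Retnlb was therefore not tested between feeds, and no fold is given.

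**Figure D1:**
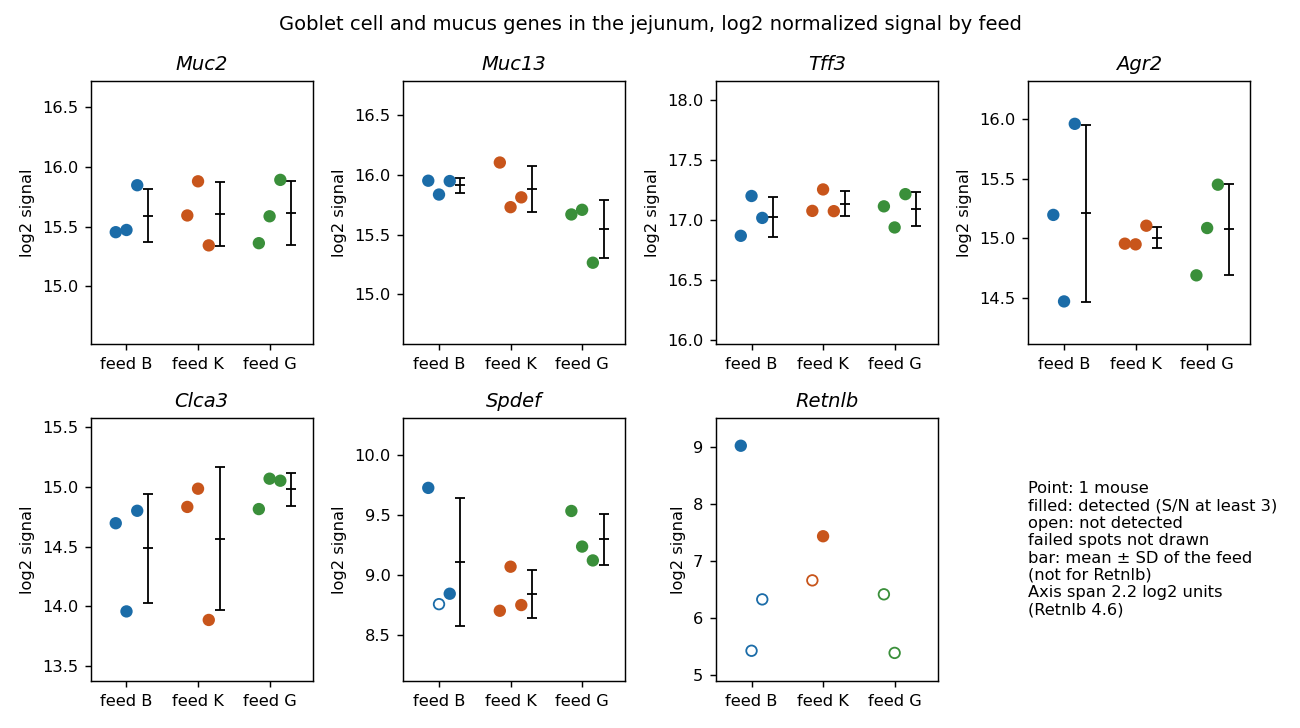
Log2 normalized signal (vertical axis) of the 7 genes with a probe, by feed (horizontal axis), with 1 point per mouse, open where the gene was not detected, and the mean ± SD of each feed beside the points except for Retnlb. The ranges of Muc2 overlap between the feeds, the 3 mice of feed G are the lowest for Muc13, and the lowest and highest mice for Agr2 are both on feed B.

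Across the 3 feeds, 0 of the 6 genes tested passed an adjusted p of 0.05 with limma, and their adjusted p ran from 0.903 to 0.999. The same held for the array as a whole, where 0% of the 9789 genes passed in the F test and in each pair of feeds, and the smallest adjusted p was 0.356. At an unadjusted p below 0.05, limma's F test called 0 of the 6 genes beside 5.46% of all genes tested. In the pairs of feeds it called 0 of 6 each time, beside 6.31% of all genes for feed K against B, 5.74% for feed G against B and 4.54% for feed G against K. The exact permutation test called 0 of 9689 genes after adjustment and 497 without it. Its smallest possible p, 0.00357, could pass adjustment only if a very large number of genes shared it. The 0 of this test therefore adds nothing to the limma result. Signals that did not overlap between feeds were found for 0 of 6 genes in K against B (9.95% of all genes), for 2 of 6 in G against B (Muc13 and Clca3, beside 11% of all genes) and for 2 of 6 in G against K (Muc13 and Spdef, beside 13.7% of all genes). In simulated data on this design, for feed G against feed B, limma recovered 0 of 200 genes changed by a log2 value of 1, 116 of 200 changed by 2 and 154 of 200 changed by 3. The changed genes were drawn at random from the 9689 genes, each with its own spread. These counts hold for that mix and are not rates for the 6 genes tested. Without mouse 10 of feed B, 3 genes of the array passed the F test, 14 passed in K against B and 6 in G against B, and none of the goblet cell genes was among them.

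**Figure D2:**
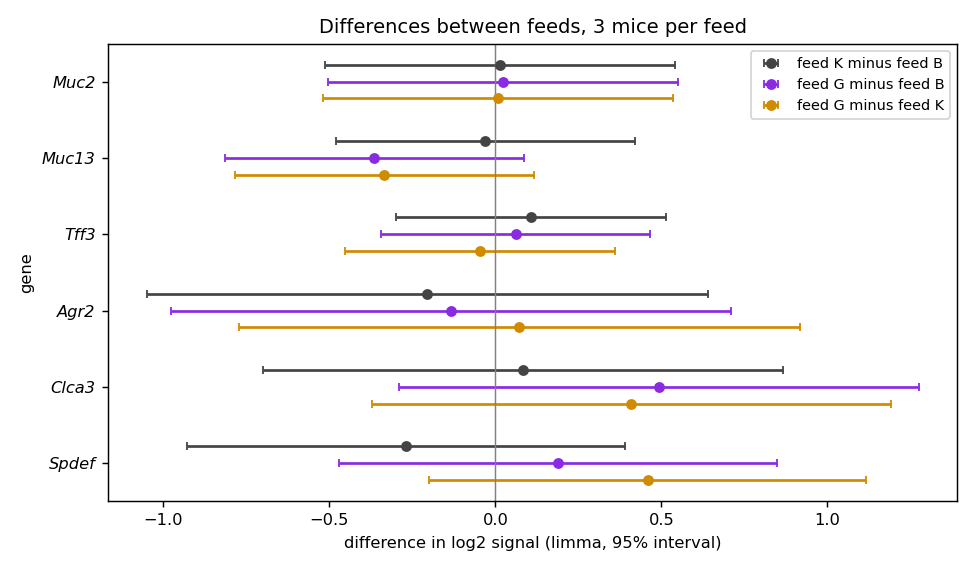
Differences in mean log2 signal between feeds (horizontal axis) for the 6 genes tested (vertical axis), as points with 95% intervals from limma, in a colour for each pair of feeds. All 18 intervals cross 0, and those of Agr2 and Clca3 are the widest.

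The genes differed in how much they varied between mice. Over the 9 mice the SD of the log2 signal was 0.13 for Tff3, 0.22 for Muc2, 0.24 for Muc13, 0.43 for Agr2 and 0.45 for Clca3, against a median of 0.29 over the 5973 genes detected on all arrays. Of those genes 4.50% had an SD at or below that of Tff3, 27.8% at or below that of Muc2 and 78.1% at or below that of Clca3. The standard deviation within a spot was at most 4.12% of the signal for these 5 genes, and between 5.32% and 37.6% for Spdef. The order rests on the normalization. Under scaling to the median, the SD was 0.35 for Tff3, 0.50 for Muc2, 0.62 for Agr2 and 0.75 for Clca3, while it was 0.25 for Muc13, which was then the least variable.

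Whether the genes rose and fell together from mouse to mouse also depended on the normalization. Over the 9 mice, the 10 pairs of the 5 genes detected throughout had Pearson r values from -0.46 (Muc13 with Tff3) to 0.61 (Muc2 with Clca3), with a median of -0.07. For Muc2 with Clca3 the exact permutation p was 0.0859 for r and 0.0589 for a Spearman rho of 0.67, and r was 0.48 without the 2 mice farthest from the median of Muc2. None of the 10 pairs passed after adjustment, with a smallest adjusted p of 0.502 for r and 0.460 for rho in exact permutation tests, two-sided. Under scaling to the median, r lay between 0.57 and 0.92 and 6 of 10 pairs passed (4 of 10 by rho), led by Muc2 with Clca3 (r 0.92, rho 0.95, exact permutation adjusted p 0.00441 and 0.00353, r 0.91 without the 2 farthest mice). Under that scaling, however, r was above 0 for 90.8% of all pairs among the 5973 genes, with a median of 0.58, against 52.0% and a median of 0.02 after quantile normalization. With the feed means subtracted, 0 of 10 pairs passed after adjustment and 2 had an unadjusted p below 0.05 in the exact permutation test.

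**Figure D3:**
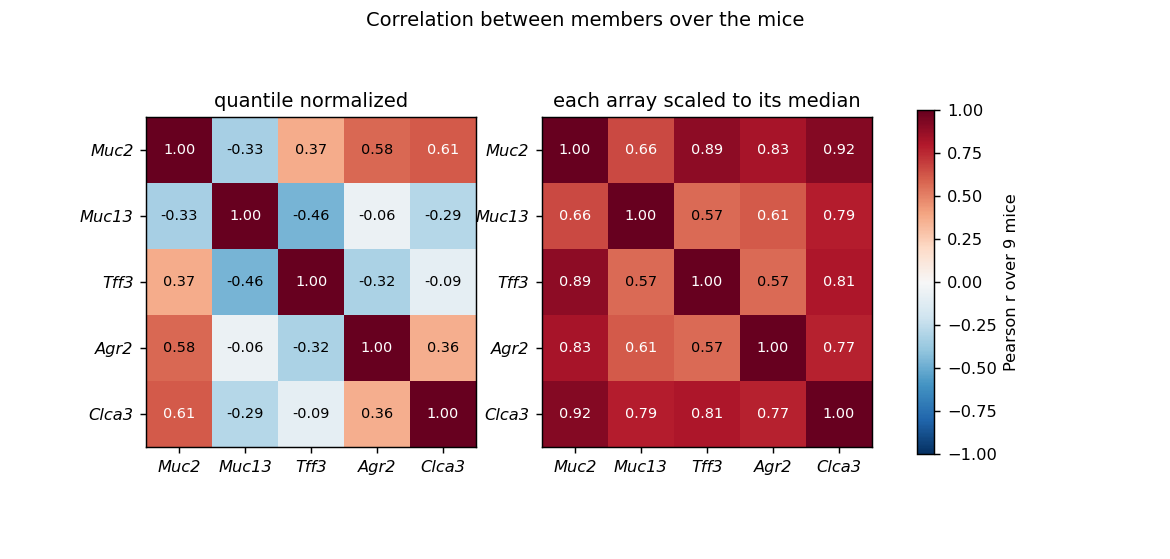
Pearson r over the 9 mice between the log2 signals of the 5 genes detected on all arrays, as coloured squares with the value written in, after quantile normalization (left) and with each array scaled to its median (right). Values from -0.46 to 0.61 on the left become 0.57 to 0.92 on the right.

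The genes whose signal was most like that of Muc2 over the 9 mice, among 5972 others detected on all arrays, were Chmp2a with an r of 0.943, Cxadr with 0.943 and Ostf1 with 0.936. Chmp2a belongs to the membrane-remodelling ESCRT machinery and Cxadr is a junction protein. In all, 8 genes had an r above 0.9 and 33 an r below -0.9, and Muc13, Tff3, Agr2 and Clca3 were in neither set. Spdef and Retnlb, not detected on all arrays, were not compared.

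Agr2 was highest in the mice with the most Fabp6, the bile acid binding protein of the ileum. The log2 signal of Fabp6 was 15.81, 4.67 (not detected) and 17.84 in mice 7, 8 and 10 of feed B, 8.92, 12.19 and 11.81 in mice 1, 3 and 4 of feed K, and 8.10, 8.96 and 19.51 in mice 4, 8 and 11 of feed G. Mouse 10 of feed B and mouse 11 of feed G, the highest for Fabp6, were also the highest for Agr2 and for the ileal bile acid transporter Slc10a2, whose log2 signal was 12.05 and 12.66 there and at most 9.73 in the other 7 mice. Slc51a, another ileal marker, was at 14.46 and 14.50 in these mice. It was almost level in mice 7 and 8 of feed B (14.37 and 14.35), although Fabp6 was not detected in mouse 8. In the remaining mice Slc51a lay between 13.31 and 14.01. Over the 9 mice Agr2 and Fabp6 had an r of 0.87 (exact permutation p 0.00158, adjusted over 5 genes 0.00790) and a rho of 0.88 (p 0.00308, adjusted 0.0154). Without the 2 mice farthest from the median of Agr2 (mice 8 and 10 of feed B), r was 0.86. Mouse 11 of feed G, the highest for Fabp6, stayed in. Leaving out 1 mouse at a time gave an r between 0.81 and 0.91. With feed means subtracted r was 0.87 (exact permutation adjusted p 0.0136) and rho 0.77 (adjusted p 0.107), and under scaling to the median r was 0.81 (exact permutation adjusted p 0.0359), rho 0.77 (adjusted p 0.107) and r without the 2 farthest mice 0.61. The other 4 genes had an r with Fabp6 between -0.32 (Muc13) and 0.59 (Muc2), with an exact permutation adjusted p of at least 0.241. The relation was looked for after the values had been seen, and the adjustment over 5 genes does not cover the choice of Fabp6. How many of all genes follow Fabp6 as closely was not counted, so the relation cannot be called particular to Agr2. The deposited labels name all samples jejunum, and where along the gut each piece lay was not measured.

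**Figure D4:**
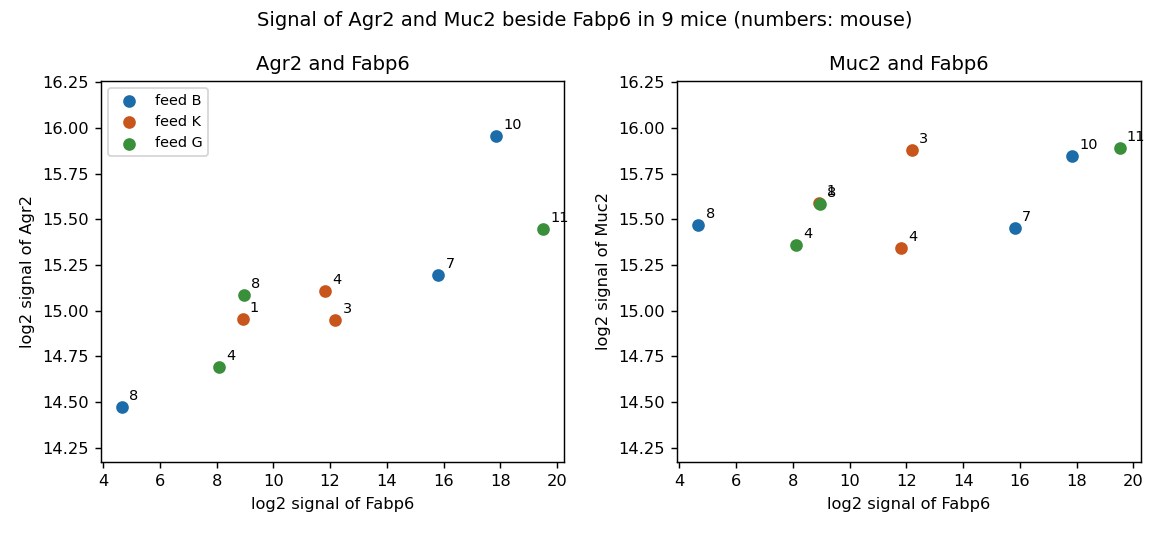
Log2 signal of Agr2 (left) and Muc2 (right) on the vertical axes against that of Fabp6 on the horizontal axes, with 1 point per mouse, coloured by feed and marked with the mouse number. Agr2 runs from 14.47 in mouse 8 of feed B, the lowest for Fabp6, to 15.96 in mouse 10 of feed B, and for Muc2 r is 0.59 with an exact permutation adjusted p of 0.241.

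The wider goblet cell program gave no call between feeds after adjustment either. Of 27 further genes of that program, 24 had a probe, 20 were tested and 0 passed an adjusted p of 0.05 with limma, while 1 had an unadjusted p below 0.05, beside 5.46% of all genes. This was Creb3l1, a membrane-bound transcription factor of secretory cells, with a log2 signal of 9.11 ± 0.19 on feed B, 8.25 ± 0.55 on feed K and 8.98 ± 0.24 on feed G (SD, n = 3 each; limma F test p 0.0377, adjusted 0.888). Its 3 mice on feed K lay below all mice of the other feeds. Ranges did not overlap for 9.95% of all genes in K against B and for 13.7% in G against K. Mouse 4 of feed K was lowest at 7.62, beside 8.59 and 8.54 in mice 1 and 3. Creb3l1 was the 1 gene of this list with an unadjusted limma p below 0.05 between pairs of feeds. These were K against B (-0.86, SE 0.29, beside 6.31% of all genes) and G against K (0.73, SE 0.29, beside 4.54%). Next came Bcas1 (limma F test p 0.140) and Atoh1, the factor that commits cells to the secretory lineage (p 0.143), whose log2 signal was 9.29 ± 0.03 on feed B, 9.14 ± 0.22 on feed K and 9.60 ± 0.29 on feed G. The median difference over the genes tested was -0.11 for feed K against B, 0.09 for feed G against B and 0.24 for feed G against K, beside 0.05, 0.06 and -0.01 over all genes.

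The enzymes that build the sugar chains of mucins gave a like count. Of 27 such genes, 24 had a probe and 19 were tested, and 0 had a limma F test p below 0.05, unadjusted (beside 5.46% of all genes) or adjusted. The smallest p belonged to C1galt1, which makes the core 1 chain, with a log2 signal of 10.96 ± 0.11 on feed B, 10.48 ± 0.14 on feed K and 10.99 ± 0.27 on feed G (SD, n = 3 each). It was the 1 gene of this list with an unadjusted limma p below 0.05 between pairs of feeds, lower on feed K than on feed B (-0.48, SE 0.20, adjusted p 0.787) and higher on feed G than on feed K (0.51, SE 0.20, adjusted p 0.959). The shares of all genes with such a p were 6.31% and 4.54%. B3gnt7, which extends the chains, was 13.75 in mouse 10 of feed B and between 10.77 and 11.92 in the other mice. The median differences were -0.03 for feed K against B, -0.03 for feed G against B and 0.00 for feed G against K.

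Other mucins, trefoil peptides and resistin-like genes were mostly not detected. Of 14 such genes 10 had a probe, 6 were detected on none of the 9 arrays (Muc1, Muc6, Muc15, Muc20, Tff1 and Tff2) and 2 were tested. These were Retnla, a relative of Retnlb, and Muc4, and 0 of the 2 had an F test p below 0.05 with limma, beside 5.46% of all genes. The log2 signal of Retnla was 9.35 ± 0.86 on feed B, 8.73 ± 0.78 on feed K and 8.09 ± 0.06 on feed G (SD, n = 3 each), and it was detected on 8 arrays. On feed B it was 8.84, 8.87 and 10.34 in mice 7, 8 and 10, and was detected in 2 of these 3, so an undetected spot enters that mean. For Retnla, feed G against feed B had an unadjusted limma p below 0.05, at a log2 difference of -1.26 (SE 0.49, adjusted p 0.842), beside 5.74% of all genes. Of 10 genes of type 2 cytokine signalling, which can raise mucus production, 5 were detected on none of the arrays. The 4 tested included the transcription factor Stat6, the receptor chain Il13ra1 and the cytokine Il33, and 0 of the 4 had an F test p below 0.05 with limma, beside 5.46% of all genes.

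The genes that mark goblet cells had summed signals that overlapped between the 3 feeds. Linear signals were added, so the brightest probes weighed most. For goblet cells these were Tff3 and Spink4, while Spdef hardly entered the sum. The summed signal of 6 of 8 goblet cell markers, 5 of them genes described above, lay between 18.26 and 18.36 on feed B, 18.27 and 18.39 on feed K, and 18.27 and 18.47 on feed G, in log2 units. That of 5 of 7 Paneth cell markers ran from 19.48 to 19.88, from 18.99 to 19.91 and from 17.75 to 20.09, the lowest in mouse 11 of feed G. That of 6 of 8 enterocyte markers ran from 20.87 to 21.64, from 21.31 to 21.63 and from 21.21 to 21.35, and that of 5 smooth muscle markers from 16.02 to 16.20, from 15.93 to 16.42 and from 15.64 to 16.32. That of 3 of 4 ileal markers ran from 14.37 to 18.00, from 13.75 to 14.36 and from 13.44 to 19.57. Of 3 colon markers, Car1 was detected on 1 of 9 arrays, Aqp8 on 4 and Slc26a3 on all 9, at log2 signals from 11.11 to 11.98. The part of other cell types in the differences between feeds was not tested.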

How the data were processed

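RNA of 9 jejuna was measured on single-colour Applied Biosystems arrays, 1 array and 1 mouse per sample (separate animals). The authors deposited, for each array, the scanner's signal intensity per spot (background-corrected and spatially normalized) and its standard deviation, also an intensity, with the signal-to-noise ratio, used as a score, and a quality flag. They also deposited a linear, uncentred series table, equal to the assay-normalized signal for 297108 of 297108 values, with column medians of 1.35, 1.53 and 1.11 (feed B, mice 7, 8 and 10), 1.16, 1.12 and 1.09 (feed K, mice 1, 3 and 4) and 1.06, 1.10 and 1.09 (feed G, mice 4, 8 and 11). What it was divided by is unknown. The submitters' processing notes name RMA, and no genome build is given in the sources used here.

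Of 33012 probes, 17302 carry a symbol and 256 more were named through RefSeq accessions (gene table and promoters of GRCm38.p6), 17558 in all. Muc13 carries the symbol Ly64 and Muc2 none in the array files. After removal of spots flagged above 5000, the signals were quantile normalized and put on the log2 scale, and several probes of 1 gene were averaged. Genes detected (signal-to-noise ratio of 3 or more) on at least 3 arrays entered a limma 3.58.1 fit (R 4.3.3, lmFit and eBayes, Benjamini-Hochberg at 0.05), which was tested on simulated data holding 200 changed genes. The exact permutation test of F, run on the 9689 genes with values on all arrays, has a smallest p of 0.00357. Correlations over mice were tested over all 362880 pairings, two-sided, and adjusted over the 10 pairs or, with Fabp6, over 5 genes. The other steps ran in Python 3.11.15 with pandas 2.3.3, scipy 1.17.1 and numpy 2.4.6.

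The members, gene lists and tests were chosen with earlier results of these data known. Named genes are all 9 members, up to 3 genes per list with the smallest F test p, cell type markers, and the 3 genes most correlated with Muc2. Those most like Retnlb were not computed, since most of its values are undetected. Fabp6 was set against the members after its values had been seen. As alternatives, the series table, median scaling, the brightest probe, failed spots kept, a floor at percentile 5, no filter or detection on all 9 arrays, feed means subtracted, the permutation test and leaving out each mouse were run. The number of arrays limits the precision.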

Additional observations from a re-analysis of the deposited data

Results flagged for a closer look

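Among 61 genes of the lists and members examined for a mouse standing apart from the other 8, 5 had a gap to the nearest mouse, as a share of the whole range, above the limit of 0.493. Chance gives about 1 in 20, or 3.05 of 61. Mouse 10 of feed B was apart and high for Chst4 (0.732 of the range), a sulfotransferase, and for B3gnt7 (0.615), a glycosyltransferase of mucin chains. Mouse 4 of feed K was apart and low for Creb3l1 (0.540). Mouse 11 of feed G was apart and low for the Paneth cell products Defcr5 (0.679) and Lyz1 (0.540). None of the goblet cell genes described was among the 5.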

How the results depend on the processing

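Of 285 alternative values of the differences between feeds for the 6 genes tested, 253 had the same direction as reported, 32 the opposite one, and none passed an adjusted p of 0.05 (smallest 0.268). Many of the 253 could not differ. With 1 probe per gene, the brightest probe, the floor and the detection filters gave the same differences again. Leaving out a mouse of the third feed also hardly moved a difference. The count of 253 is therefore no measure of stability. Scaling to the median shifted the median of all genes by 0.41 (K against B), 0.53 (G against B) and 0.11 (G against K). It turned Muc13 to 0.28 in K against B and 0.20 in G against B, Tff3 to 0.15 in G against K, Agr2 to 0.16 in K against B and 0.44 in G against B, and Spdef to 0.10 in K against B. The series table, with shifts of 0.21, 0.30 and 0.07, turned Muc13 to 0.027 in K against B, Tff3 to 0.022 in G against K, and Agr2 to 0.036 in K against B and 0.19 in G against B. Relative to these shifts, Muc13, Agr2 and Spdef kept the reported sign in each of these cases, and Tff3 in G against K was at 0.04 from the median gene under median scaling and at -0.05 with the series table. Leaving out 1 mouse gave, in K against B, -0.12 to 0.14 for Muc2, -0.14 to 0.046 for Muc13, -0.57 to 0.17 for Agr2, -0.18 to 0.42 for Clca3 and -0.45 to 0.040 for Spdef. In G against B it gave -0.12 to 0.15 for Muc2, -0.019 to 0.15 for Tff3 and -0.50 to 0.24 for Agr2. In G against K it gave -0.13 to 0.15 for Muc2, -0.11 to 0.029 for Tff3 and -0.11 to 0.26 for Agr2.

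Genes past an adjusted p numbered 0 to 3 (F test), 0 to 14 (K against B), 0 to 6 (G against B) and 0 (G against K) with 1 mouse left out. Unadjusted, they numbered 385 to 981, 399 to 1111, 425 to 1057 and 288 to 616, against 534, 618, 562 and 444 with all mice, and the highest of the first 3 came without mouse 10 of feed B. Restricted to 5973 genes detected on all 9 arrays, 1 gene passed the F test and 1 passed G against B. Unadjusted counts were 1107, 1255, 1832 and 368 under median scaling of 9789 genes, and 909, 1003, 991 and 677 of 15878 genes with no filter. Under median scaling 6 pairs of genes passed in place of 0, and the median SD of the 5 genes was 0.50 in place of 0.24. Apart from the larger number of genes tested with no filter, the cause of these changes was not tested. No paired analysis was possible because feeds B and K share no mouse number, and each of the other pairs shares only 1. The array files gave no slide or scan day holding more than 1 array, so the planned batch term was not run, nor was a permutation test per pair of feeds, where 3 mice against 3 cannot go below p 0.1.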
